A study of Mus musculus with 2 samples.

Results

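The genes described here encode the subunits of the oxidative phosphorylation system. They were taken by gene symbol, as every biological probe whose name in the scanner files began with Nduf followed by a, b, c, s or v, was Sdha, Sdhb, Sdhc or Sdhd, or began with Uqcr, with Cox and a digit from 4 to 8, or with Atp5. This rule found 136 of the 39429 probes on the arrays, and 93 of the 29924 gene names. Of these 93 genes, 82 encode structural subunits, 7 are assembly factors of complex I (Ndufaf1 to Ndufaf7) and 4 are other proteins or a pseudogene that share the stem of the name (Cox7a2l, Atp5s, Atp5sl and Atp5c1-ps).

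The study treated ureters of wildtype NMRI mouse embryos, which had been dissected at E12.5 and kept as explants for 18 h, with BIO at 10 µM or with DMSO alone, the solvent of BIO. BIO (6-bromoindirubin-3-oxime) inhibits the kinase GSK3, and the question behind the series is how activation of canonical WNT signaling changes gene expression in the early ureter. RNA from pools of ureters was hybridized to 2 two-color arrays, on each of which BIO RNA and control RNA were compared directly. BIO RNA was read in the red channel in replicate 1 and in the green channel in replicate 2. All ureters, the controls included, had been cultured and exposed to DMSO.

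Oxidative phosphorylation takes place in the inner mitochondrial membrane. Complex I (NADH dehydrogenase) and complex II (succinate dehydrogenase) feed electrons to ubiquinone, complex III (the cytochrome bc1 complex) passes them to cytochrome c, and complex IV (cytochrome c oxidase) passes them to oxygen, while complex V (ATP synthase) uses the proton gradient so built to make ATP. Most subunits are encoded in the nucleus and a few in mitochondrial DNA, so that both genomes have to supply a complex. Transcription factors such as NRF1, the ETS factor GABP (also called NRF-2) and YY1 are known to bind the promoters of many of the nuclear genes.

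Each value below is a log2 ratio of BIO over control after background correction and loess normalization within the array, and the mean is over the 2 arrays. A gene is represented by its brightest probe. Of the 93 genes, 92 were well above background in at least 1 condition on both arrays and could be tested. The exception was Cox8c, a testis isoform of a complex IV subunit, whose processed signals were between 2.1 and 5.6 in all 4 channels, not well above background in any of them. Over all 21598 genes tested, 5160 passed an adjusted p of 0.05 with limma, or 23.9%. The 3186 genes that fell were 14.8% of those tested and the 1974 that rose 9.14%. Both arrays showed the response to the inhibitor, since the WNT feedback gene Axin2 rose by 2.27 and 2.03 (adjusted p from limma 3.41e-05).

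Among the 92 oxidative phosphorylation genes, 5 fell and 0 rose, which is 5.43% called against the 23.9% of all genes. At an unadjusted p of 0.05, limma counted 19 of the 92 below control and 0 above it. Of all 21598 genes tested, 4647 were below control and 3281 above it at that threshold. The 5 genes that fell were the complex I subunits Ndufa1, Ndufa11 and Ndufb10, the complex IV subunit Cox6a1 and the complex V subunit Atp5e, with BIO-to-control ratios between 0.673 and 0.777. All 92 genes had a 95% interval that lay inside a 2-fold change in either direction, as did 19919 of the 21598 genes tested. For 84 of the 92 it lay inside a 1.5-fold change, against 15051 of the 21598. The 5 calls depend on the normalization: neither the scanner's processed signals nor median centering without loess left any call among the members (0 of 92), although 8.92% and 12.8% of all genes passed.

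**Figure D1:**
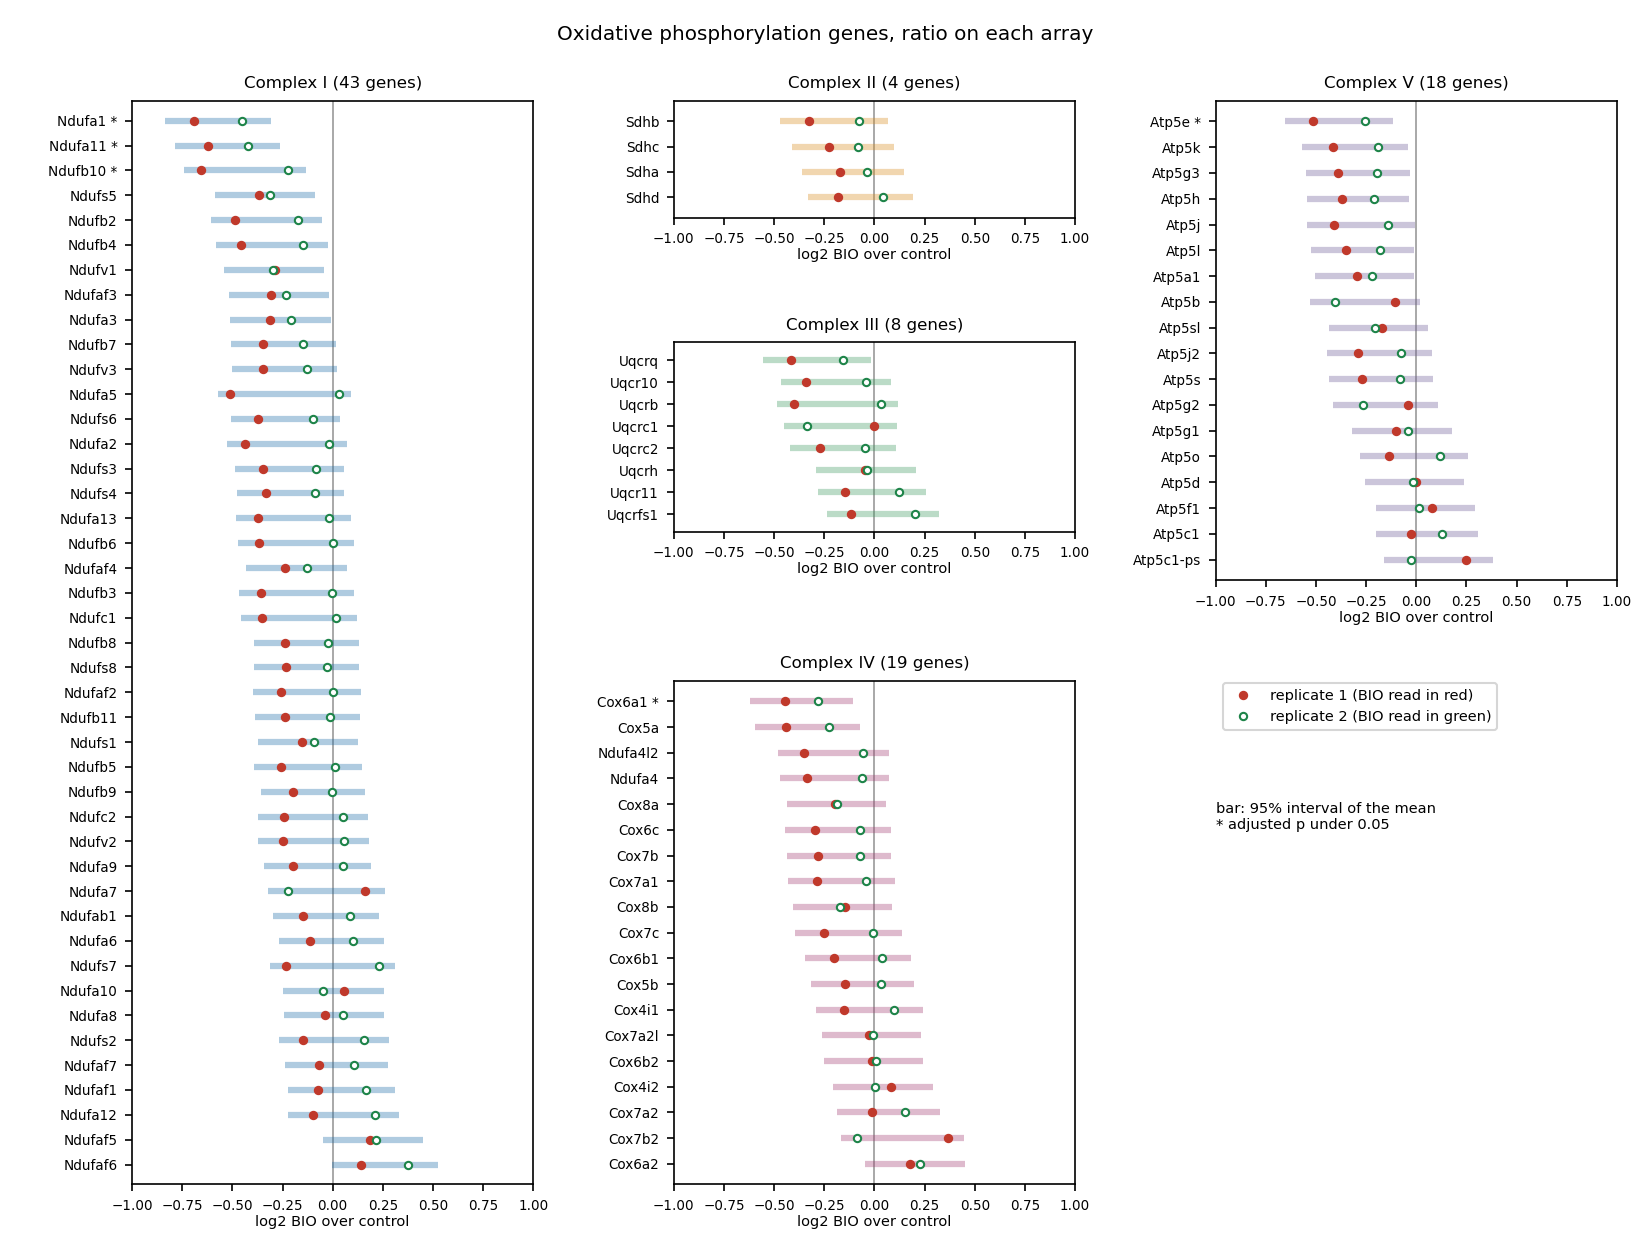
Log2 ratio of BIO over control on each array for the 92 tested genes, grouped by complex and ordered by their mean. Filled red points are replicate 1, open green points replicate 2, bars the 95% interval of the mean from limma and stars the 5 genes with an adjusted p under 0.05, all of them below 0.

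The promoters of the genes that fell are shown first, since the genes of these complexes are often described as sharing control elements. Windows of 300 bases, from 250 before to 50 after the start of the transcript, were taken from RefSeq (GRCm38.p6). All 93 genes matched the RefSeq gene table and 76 had at least 1 window. Matches on either strand to GCATGCG (the core of the NRF1 motif), CCGGAAG (the core bound by ETS factors such as GABP), ATGGCGG (the core of the YY1 motif) and CTTTGAA (the core bound by TCF/LEF factors, the nuclear partners of beta-catenin) are in capitals. No core contains another, but a palindromic NRF1 site matches on both strands with an overlap. The first 5 sequences belong to the genes that fell. Sdhb of complex II and Uqcr11 of complex III, which did not pass the test, were added after the matches were seen, as members that hold both an NRF1 and an ETS core.
Ndufa1: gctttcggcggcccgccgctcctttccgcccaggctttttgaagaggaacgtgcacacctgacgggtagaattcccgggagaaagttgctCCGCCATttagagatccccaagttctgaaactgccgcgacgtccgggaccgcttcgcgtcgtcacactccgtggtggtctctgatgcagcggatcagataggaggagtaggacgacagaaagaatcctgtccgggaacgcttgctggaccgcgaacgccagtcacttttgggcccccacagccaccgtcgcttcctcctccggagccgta
Ndufa11: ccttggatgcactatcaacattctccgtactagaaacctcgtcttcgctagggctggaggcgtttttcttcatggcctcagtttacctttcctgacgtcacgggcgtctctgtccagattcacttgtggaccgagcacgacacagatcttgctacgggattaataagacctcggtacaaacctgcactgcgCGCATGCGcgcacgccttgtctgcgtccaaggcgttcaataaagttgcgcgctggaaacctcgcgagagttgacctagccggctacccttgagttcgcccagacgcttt
Ndufb10: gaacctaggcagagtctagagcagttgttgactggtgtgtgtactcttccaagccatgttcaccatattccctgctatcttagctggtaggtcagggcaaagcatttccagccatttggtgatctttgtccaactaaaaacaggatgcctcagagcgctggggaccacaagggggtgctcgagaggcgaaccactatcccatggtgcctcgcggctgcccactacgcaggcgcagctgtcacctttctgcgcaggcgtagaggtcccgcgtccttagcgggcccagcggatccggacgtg
Cox6a1: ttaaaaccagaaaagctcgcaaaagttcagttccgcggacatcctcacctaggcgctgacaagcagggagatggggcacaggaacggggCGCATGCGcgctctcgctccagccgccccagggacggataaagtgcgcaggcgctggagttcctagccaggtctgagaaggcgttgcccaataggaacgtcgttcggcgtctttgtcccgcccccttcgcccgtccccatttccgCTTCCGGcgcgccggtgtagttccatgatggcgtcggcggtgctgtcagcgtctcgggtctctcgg
Atp5e: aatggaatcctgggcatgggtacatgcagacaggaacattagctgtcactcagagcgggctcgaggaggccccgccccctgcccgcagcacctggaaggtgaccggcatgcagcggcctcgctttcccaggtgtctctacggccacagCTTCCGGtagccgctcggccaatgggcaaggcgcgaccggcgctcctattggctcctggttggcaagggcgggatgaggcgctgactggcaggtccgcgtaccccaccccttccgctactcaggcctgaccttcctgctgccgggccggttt
Sdhb: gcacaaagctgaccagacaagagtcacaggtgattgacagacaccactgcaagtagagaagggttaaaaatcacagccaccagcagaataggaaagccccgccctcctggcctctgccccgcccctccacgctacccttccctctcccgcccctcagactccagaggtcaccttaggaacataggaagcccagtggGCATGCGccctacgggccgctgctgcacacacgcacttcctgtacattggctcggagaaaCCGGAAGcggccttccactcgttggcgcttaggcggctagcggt
Uqcr11: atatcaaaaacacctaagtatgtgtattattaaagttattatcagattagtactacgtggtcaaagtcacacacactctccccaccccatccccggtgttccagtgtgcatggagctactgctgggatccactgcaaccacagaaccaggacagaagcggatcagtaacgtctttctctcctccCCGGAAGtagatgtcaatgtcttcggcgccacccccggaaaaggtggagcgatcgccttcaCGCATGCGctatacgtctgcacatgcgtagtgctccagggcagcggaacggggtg
The windows lie at chrX:37191189-37191488 for Ndufa1, chr17:24724374-24724673 for Ndufb10, chr5:115348909-115349208 for Cox6a1 and chr2:174464052-174464351 for Atp5e, all on the minus strand, and at chr17:56717512-56717811 on the plus strand for Ndufa11. Those of Sdhb and Uqcr11 are chr4:140961021-140961320 on the plus strand and chr10:80406772-80407071 on the minus strand.

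Of the 5 windows of genes that fell, those of Ndufa11 and Cox6a1 matched the NRF1 core, those of Cox6a1 and Atp5e the ETS core and that of Ndufa1 the YY1 core, while Ndufb10 matched none of them. Over all 76 genes with a window, 13 (17.1%) matched the NRF1 core, 17 (22.4%) the ETS core, 12 (15.8%) the YY1 core and 2 (2.63%) the TCF/LEF core. The corresponding shares of all 27025 genes in the table were 4.01%, 9.93%, 4.69% and 5.93%. Among the 71 genes with a window that were not called, 31 had an NRF1, ETS or YY1 match, and among the 5 that fell, 4 did. A match describes letters in the window and is not evidence that a factor was bound.

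Complex I was represented by 36 structural genes, 7 of them core subunits that carry the flavin and iron-sulfur centers and 29 accessory subunits. Of these, 3 fell and 0 rose, and the median log2 ratio was -0.30 in replicate 1, -0.02 in replicate 2 and -0.17 for the mean, beside -0.03, 0.00 and -0.01 over all genes tested. The means ranged from -0.57 to 0.06. Under median centering, without loess, complex I had a median of -0.04, beside -0.04 over all genes tested.

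Ndufa1 encodes a small accessory subunit of the membrane arm that is needed for assembly of the complex. In processed signal, the control channels of replicates 1 and 2 read 22954 and 23221 and the BIO channels 14502 and 17605. For the other genes too, signals are given for replicate 1 and then replicate 2. BIO was lower on both arrays, with log2 ratios of -0.69 and -0.45. The mean was -0.57 ± 0.12 (moderated SE, n = 2, limma adjusted p = 0.00947). The Ndufa1 probe lies on chromosome X at 34727627 to 34727686 (mm9). Ndufa1 had the lowest mean of the 92 genes. A moderated SE, here and below, is limma's and rests mainly on the spread between the arrays over all tested probes. It is not the SE of the gene's own 2 ratios.

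Ndufa11, another accessory subunit of the membrane arm, read 6261 and 6491 in the control channels of replicates 1 and 2 and 4089 and 4977 in the BIO channels. The ratios were -0.62 and -0.42, and the mean was -0.52 ± 0.11 (moderated SE, n = 2, limma adjusted p = 0.0127). The probe is on chromosome 17 at 56857241 to 56857300 (mm9). Ndufb10, an accessory subunit of the distal membrane arm, read 13190 and 13010 in control and 9125 and 10973 with BIO, with its probe on chromosome 17 at 24859019 to 24859078. Here the arrays differed more, at -0.65 and -0.22. The mean was -0.44 ± 0.13 (moderated SE, n = 2, limma adjusted p = 0.0456). With median centering the means of Ndufa1, Ndufa11 and Ndufb10 were still below 0, at -0.41, -0.53 and -0.35, with limma adjusted p of 0.248, 0.0942 and 0.372. With the processed signals they were -0.53, -0.50 and -0.39, with adjusted p of 0.0807, 0.0822 and 0.129.

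The next lowest complex I gene, Ndufs5, an accessory subunit facing the intermembrane space, had ratios of -0.37 and -0.31 and missed the threshold (mean -0.34, limma adjusted p = 0.0558). It passed, at an adjusted p of 0.0409, when all tested probes of a gene were averaged before the fit. The brightest complex I probes were those of Ndufb11 and Ndufs3. Ndufb11 was at 35915 and 36384 in the control channels and at 30634 and 35250 in the BIO channels, with ratios of -0.24 and -0.01. Ndufs3, a core subunit of the peripheral arm, was at 23702 and 24323 in control and at 18994 and 23860 in BIO RNA, with ratios of -0.35 and -0.08. Neither passed the test.

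Within complex I, the core subunits had a median of -0.12 and the accessory subunits one of -0.18. By name, the 10 Ndufb genes had means from -0.44 to -0.10, all below 0 after loess, the 13 Ndufa genes from -0.57 to 0.06, the 8 Ndufs genes from -0.34 to 0.01, the 3 Ndufv genes from -0.29 to -0.10 and the 2 Ndufc genes from -0.17 to -0.10. With median centering the medians of these 5 groups were -0.11, -0.01, -0.04, -0.12 and 0.00. None of these groups was tested as a group. The gap between arrays with opposite signs was largest in complex I for Ndufa5, an accessory subunit of the peripheral arm, at -0.51 in replicate 1 and 0.03 in replicate 2.

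Ndufa13 had a pair of probes that went different ways. The brighter one, on chromosome 8 at 72418102 to 72418161 (mm9), gave -0.37 and -0.02 and was not called. The dimmer one, at 72411694 to 72411753, was at 400 and 425 in the control channels and at 682 and 828 in the BIO channels. Its ratios of 0.61 and 0.90 gave a mean of 0.75 ± 0.12 (moderated SE, n = 2, limma adjusted p = 0.00304). It rose under median centering and with the processed signals too, with adjusted p of 0.0348 and 0.0421. The scanner file names this probe Ndufa13 by a transcript identifier but describes it as a different gene, a YjeF N-terminal domain protein, so it was not counted as a rise of Ndufa13.

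The 7 assembly factors of complex I, which help to build the complex without staying in it, had means between -0.27 (Ndufaf3) and 0.26 (Ndufaf6). None passed the test, and at an unadjusted p of 0.05 limma counted 1. Ndufaf6 had ratios of 0.14 and 0.38 and Ndufaf5 of 0.19 and 0.22. These were the only genes of the rule besides Cox6a2, Cox4i2 and Atp5f1 with both arrays above 0.

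Complex II consists of 4 nuclear-encoded subunits, and none of them was called. Sdha, the flavoprotein that oxidizes succinate, was at 13445 and 14713 in the control channels and at 12818 and 14348 in the BIO channels, with ratios of -0.17 and -0.04. Sdhb, the iron-sulfur subunit, was at 24888 and 25816 in control and at 20854 and 24203 in BIO RNA, with ratios of -0.33 and -0.08. The channels with BIO were the lower ones for both genes, by less than the interval of the mean.

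Sdhc and Sdhd anchor the complex in the membrane. Sdhc had ratios of -0.23 and -0.08, and Sdhd of -0.18 and 0.04, so that its arrays differed in sign. The 4 means lay between -0.20 and -0.07 with limma adjusted p from 0.255 to 0.714, and the widest reach of their 95% intervals was from -0.47 to 0.19. With median centering the median over complex II was 0.01 in place of -0.13.

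Complex III was represented by 8 nuclear-encoded subunits, of which 0 rose and 0 fell. At an unadjusted p of 0.05 limma counted 1, Uqcrq, a small subunit close to cytochrome b, with ratios of -0.42 and -0.15 (adjusted p = 0.118). The brightest probe was that of Uqcrh, the hinge protein near the cytochrome c1 subunit, at 49633 and 51350 in the control channels and at 42416 and 53127 in the BIO channels. Its loess-normalized ratios were -0.05 and -0.04, and its mean of -0.04 became 0.26 with median centering.

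The core protein Uqcrc2 had ratios of -0.27 and -0.05 and its partner Uqcrc1 of 0.00 and -0.34. Uqcrfs1, the Rieske iron-sulfur protein, was the one complex III subunit with a mean above 0 after loess, at 0.04 from -0.12 and 0.20. The largest gap between arrays with opposite signs was that of Uqcrb, at -0.40 and 0.03. The median over complex III was -0.21 in replicate 1, -0.04 in replicate 2 and -0.16 for the mean, and 0.03 with median centering.

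In complex IV, 11 genes encode the general form of a nuclear subunit and 8 encode forms known mainly from particular tissues. Cox6a1 fell. It is the widely used form of subunit 6a, and it was at 41379 and 40396 in the control channels and at 29590 and 34284 in the BIO channels. The ratios were -0.45 and -0.28, with a mean of -0.36 ± 0.11 (moderated SE, n = 2, limma adjusted p = 0.0482). The Cox6a1 probe is on chromosome 5 at 115795726 to 115795785 (mm9). Its mean was -0.10 (adjusted p = 0.905) with median centering and -0.36 (adjusted p = 0.131) with the processed signals.

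Cox5a, a subunit on the matrix side, had ratios of -0.44 and -0.23 and missed the threshold (limma adjusted p = 0.0687). Cox8a had the brightest probe of the complex, at 47051 and 43636 in the control channels and at 38376 and 38732 in the BIO channels. Its ratios of -0.20 and -0.19 were close to each other, and its mean of -0.19 became 0.10 with median centering. Over the 18 tested complex IV genes the median was -0.20 in replicate 1, -0.05 in replicate 2 and -0.15 for the mean, and 0.01 with median centering.

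None of the tissue forms was called. The dimmest tested ones were Cox6a2, Cox7b2 and Cox8b. Cox6a2, the heart and skeletal muscle form of subunit 6a, was at 11.5 and 12.2 in the control channels and at 16.3 and 19.0 in the BIO channels. Its control signal in replicate 2 was not well above background, so that its ratios of 0.18 and 0.23 are not set against those of Cox6a1. Cox7b2 had ratios of 0.37 and -0.09 beside -0.28 and -0.07 for Cox7b, at signals between 20.4 and 34.8, and had the largest gap between arrays with opposite signs in this complex. Cox8b was at 26.9 to 43.9, with ratios of -0.15 and -0.17 beside -0.20 and -0.19 for Cox8a.

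Other pairs were brighter. Cox4i2, the lung and hypoxia-associated form of subunit 4, was at 217 and 216 in control and at 242 and 230 in BIO RNA, with ratios of 0.08 and 0.00 beside -0.15 and 0.10 for Cox4i1. Cox6b2, a testis form, had a mean of 0.00 beside -0.08 for Cox6b1. Cox7a1, the muscle form of subunit 7a, had ratios of -0.29 and -0.04 beside -0.01 and 0.15 for Cox7a2. The difference was -0.28 and -0.19, and with median centering the means of Cox7a1 and Cox7a2 were -0.30 and 0.26. Cox7a2l, which takes part in supercomplex formation, was at -0.03 and -0.01. Ndufa4, now counted with complex IV, and its hypoxia-associated relative Ndufa4l2 had nearly the same ratios after loess. They were -0.34 and -0.06 for Ndufa4 and -0.35 and -0.06 for Ndufa4l2. With median centering the means differed, at 0.02 for Ndufa4 and -0.29 for Ndufa4l2.

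Complex V had 15 structural genes, 5 for the catalytic F1 head and 10 for the membrane part and the stalk. One of them, Atp5e, the epsilon subunit of the head, fell. It was at 29434 and 28754 in the control channels and at 21119 and 24932 in the BIO channels. The ratios were -0.52 and -0.26, with a mean of -0.39 ± 0.12 (moderated SE, n = 2, limma adjusted p = 0.0466). The probe is on chromosome 2 at 174286656 to 174286715 (mm9). Its mean was -0.17 (adjusted p = 0.795) with median centering and -0.34 (adjusted p = 0.150) with the processed signals.

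The median over the 15 genes was -0.29 in replicate 1, -0.18 in replicate 2 and -0.26 for the mean, the lowest of the 5 complexes after loess. It was also the complex with the largest change on rescaling, since median centering moved its median to 0.05, the highest of the 5. At an unadjusted p of 0.05 limma counted 7 of the 15 below control and 0 above after loess. Over all 21598 genes tested it counted 4647 below and 3281 above. With median centering, 1 of the 92 members of all complexes had an unadjusted p under 0.05. Atp5b, the catalytic beta subunit, was at 65171 and 66974 in the control channels and at 52094 and 52408 in the BIO channels, the brightest probe of all members. Its ratios were -0.10 and -0.41, with a mean of -0.26 after loess and 0.08 with median centering.

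Atp5g1, Atp5g2 and Atp5g3 encode the same mature c subunit of the membrane ring. Atp5g1 had ratios of -0.10 and -0.04, Atp5g2 of -0.04 and -0.27 and Atp5g3 of -0.39 and -0.20. Atp5g3 lay below Atp5g1 by 0.29 and 0.16, whereas its order with Atp5g2 differed between the arrays. None of the 3 passed the test, and with median centering their means were 0.16, 0.16 and 0.00.

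The remaining names of the complex V stem are no subunits in the strict sense. Atp5s (coupling factor B) had a mean of -0.17, Atp5sl one of -0.19, and the probe named for the pseudogene Atp5c1-ps had ratios of 0.25 and -0.02, the largest gap between arrays with opposite signs in this group. Whether that probe also binds the transcript of Atp5c1, which had ratios of -0.02 and 0.13, was not tested.

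**Figure D2:**
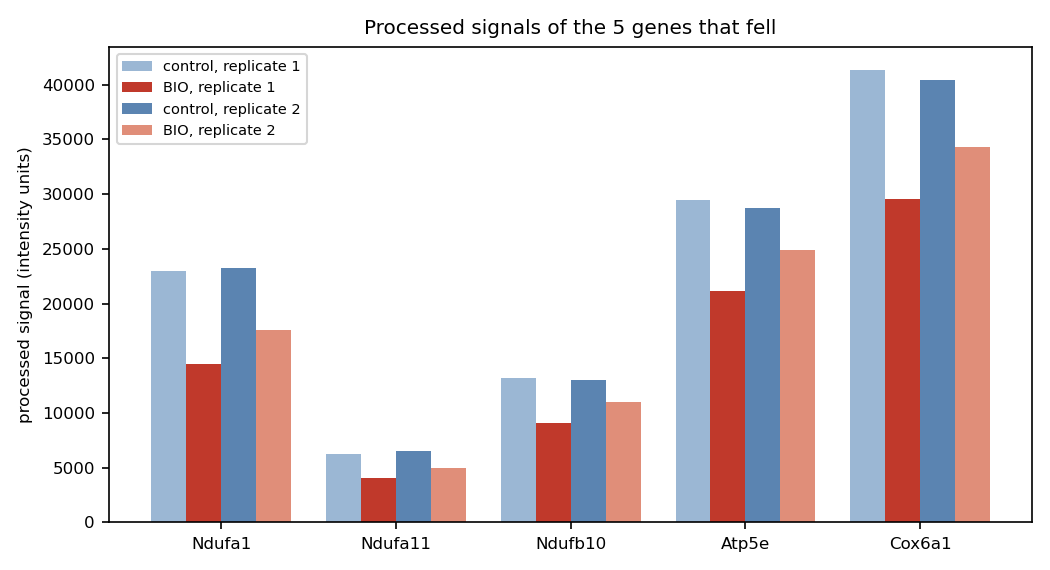
Processed signal, in the scanner's intensity units, of the 5 genes that fell, in each channel of both arrays (1 bar per channel, no error bars). BIO was below control on both arrays for each gene, with the smaller gap in replicate 2, and signals are not comparable between genes.

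The 2 arrays differed for these genes. Replicate 1 was lower than replicate 2 for 70 of the 81 tested structural subunits (86.4%), against 58.6% of all genes tested. Among the 65 subunits between the 10th and the 90th percentile of the subunits' brightness the share was 90.8%, against 70.3% of the 3547 genes of the same brightness, without a test. The median over the subunits was -0.25 in replicate 1 and -0.04 in replicate 2, with 75 and 54 of the 81 genes below 0. Both arrays were below 0 for 51 genes and both above 0 for 3. As the dyes were exchanged between the arrays, this gap cannot be told apart from a difference between the pools of ureters.

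**Figure D3:**
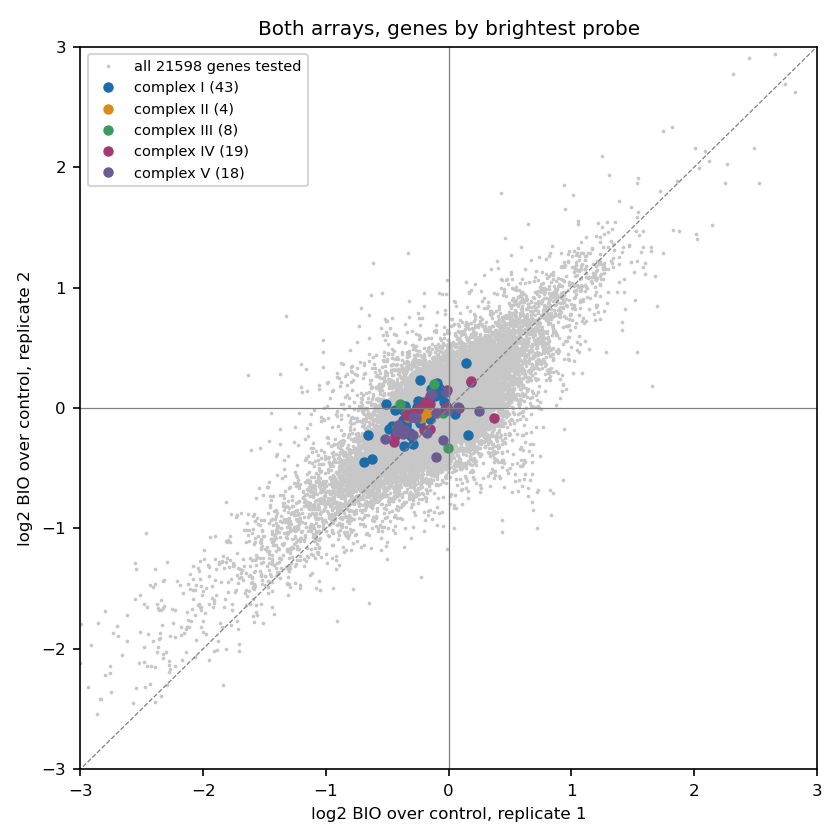
Log2 ratio of BIO over control in replicate 1 (x axis) and replicate 2 (y axis) for all 21598 genes tested (gray) and the 92 oxidative phosphorylation genes, colored by complex. The members lie near the origin, mostly left of 0 and above the dashed line of equal ratios. Genes beyond 3 on either axis are not shown.

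The size of the common shift rested on the scaling, and for complexes II to V so did the sign of the median. The median of complex I stayed below 0 with median centering, at -0.04, but that of all genes tested was -0.04 there too. The mean was below 0 for 70 of 81 subunits after loess and for 61 with the processed signals, but for 41 with median centering, and the median over the subunits was -0.17, -0.13 and 0.00 under these scalings. The median of all genes was -0.01, 0.03 and -0.04. These are bright probes, and loess removes a trend of the ratio with brightness that median centering leaves in place. Among the 3547 genes in the brightness range that held the middle of the subunits (the 10th to the 90th percentile), the median was -0.05 after loess and 0.03 with median centering. The 65 subunits in that range had medians of -0.17 and 0.00. The median of the subunits was thus below that of equally bright genes by 0.12 in the first case and by 0.03 in the other, without a test.

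**Figure D4:**
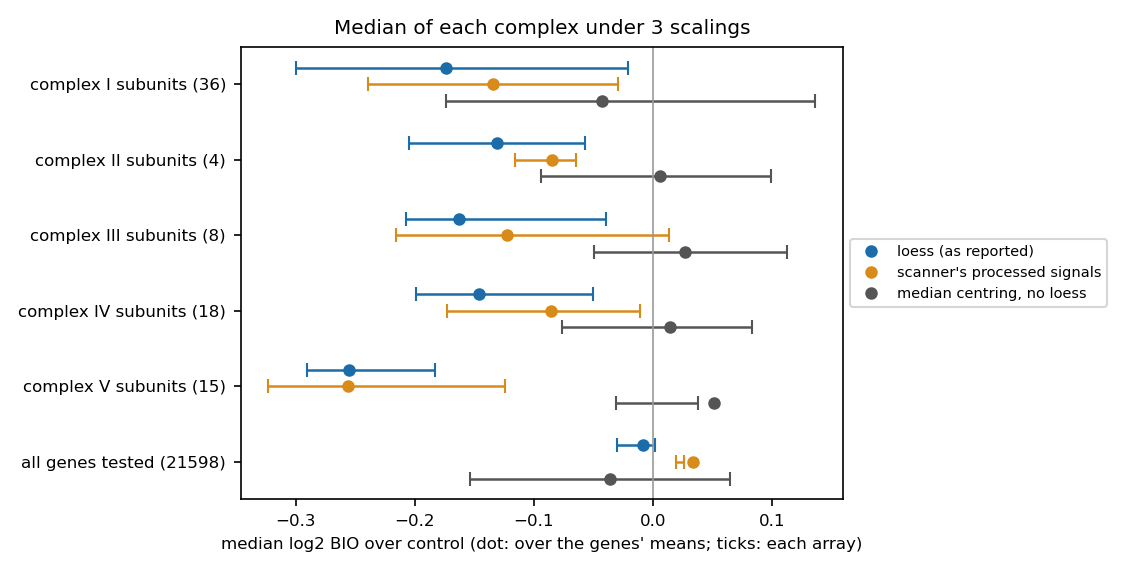
Median log2 ratio of BIO over control of the subunits of each complex and of all genes tested, under loess (blue), the scanner's processed signals (orange) and median centering (gray). Dots are medians over the genes' means and ticks the medians on each array. After loess complex V is lowest at -0.26, and with median centering it is highest at 0.05.

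The mitochondrially encoded subunits were not found by the name rule. Probes for 10 of them were on the arrays (ND1 to ND6, ND4L, CYTB, COX2 and ATP8), and 1 fell, beside 14.8% of all genes tested. ND5, a proton-pumping core subunit of complex I, was at 72124 and 81389 in the control channels and at 53295 and 53541 in the BIO channels, with ratios of -0.22 and -0.63 (limma adjusted p = 0.0463). Its mean was -0.43 after loess and -0.07 with median centering, and it was called neither there nor with the processed signals (adjusted p of 0.943 and 0.0685). The median over the 10 was 0.03 in replicate 1 and -0.46 in replicate 2, and replicate 1 was lower for 1 of the 10. This order was the reverse of that of the median over the nuclear subunits, but was not particular to mitochondrial genes. Of the bright nuclear members, Atp5b and Atp5g2 had it too, whereas Atp5g3 and Uqcrh did not. Replicate 1 was lower for 0 of 8 erythroid markers. The mitochondrial probes were not compared with equally bright nuclear ones. ND6, the one transcript read from the light strand, had signals of 24.4 to 68.5 and ratios of 0.00 and 0.63. With median centering the median of the 10 means changed from -0.21 to 0.16.

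Of the 18 tested genes of this system outside the name rule, the mitochondrially encoded ones included, 3 fell and 0 rose. The shares over all genes tested were 14.8% and 9.14%. Besides ND5, those that fell were the nuclear genes Cycs and Higd1a. Cycs, the electron carrier cytochrome c, was at 25164 and 26556 in the control channels and at 15926 and 20367 in the BIO channels, with ratios of -0.75 and -0.38 (limma adjusted p = 0.0145). Higd1a, a hypoxia-inducible partner of complex IV, had ratios of -0.66 and -0.62 (adjusted p = 0.00416), and it was still called with median centering (adjusted p = 0.0432) but not with the processed signals (adjusted p = 0.0501). Cycs was called under neither, with adjusted p of 0.292 and 0.0855. The complex III subunit gene Cyc1 had ratios of -0.13 and -0.30 and was not called. Cyct, Usmg5, 2010107E04Rik, Atpif1 and Higd2a were not called either.

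Further lists of mitochondrial genes were examined beside the subunits. The shares over all genes tested were 14.8% fallen and 9.14% risen. Of 36 tested assembly factors outside the name rule, 1 fell, Sdhaf1, which matures the iron-sulfur subunit of complex II, at -0.41 and -0.34 (limma adjusted p = 0.0396). Of 17 enzymes of the citric acid cycle, 0 were called, with 3 below control at an unadjusted p of 0.05, and their median was -0.11. Of 77 mitochondrial ribosomal proteins, Mrpl45 rose, at 0.60, and Mrpl41 fell, at -0.42, around a median of 0.02. Of 23 genes of the mitochondrial import machinery, Timm8a1 rose, at 0.61, and 0 fell, around a median of 0.06. With median centering Mrpl45 and Timm8a1 were still called and Sdhaf1 and Mrpl41 were not. With the processed signals Mrpl45 was called (adjusted p = 0.0493), but Timm8a1 (0.0748), Sdhaf1 (0.0954) and Mrpl41 (0.152) were not.

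Of 21 regulators of mitochondrial biogenesis tested, 3 fell and 1 rose, beside 14.8% and 9.14% of all genes tested. Ppargc1a, the coactivator PGC-1alpha, was at 1274 and 1312 in the control channels and at 668 and 836 in the BIO channels, with ratios of -0.95 and -0.68 (limma adjusted p = 0.00203). Its relative Ppargc1b was dim, with ratios of -0.50 and -0.26 (adjusted p = 0.0466), and the related Pprc1 rose, with ratios of 0.54 and 0.44 (adjusted p = 0.0141). Myc fell, at -0.83 and -1.06 (adjusted p = 0.000872). Ppargc1a and Myc were also called with median centering, and Ppargc1b and Pprc1 were not. With the processed signals Myc was called (adjusted p = 0.0442), but Ppargc1a (0.0516), Pprc1 (0.0529) and Ppargc1b (0.0973) were not. The motif-binding factors Nrf1, Gabpa and Yy1, with means of 0.14, -0.19 and -0.32, and the mitochondrial DNA factor Tfam, at -0.02, did not pass. Gabpb1, which encodes the partner of Gabpa in GABP, had ratios of 0.28 and 0.29 and did not pass either (limma adjusted p = 0.0986).

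**Figure D5:**
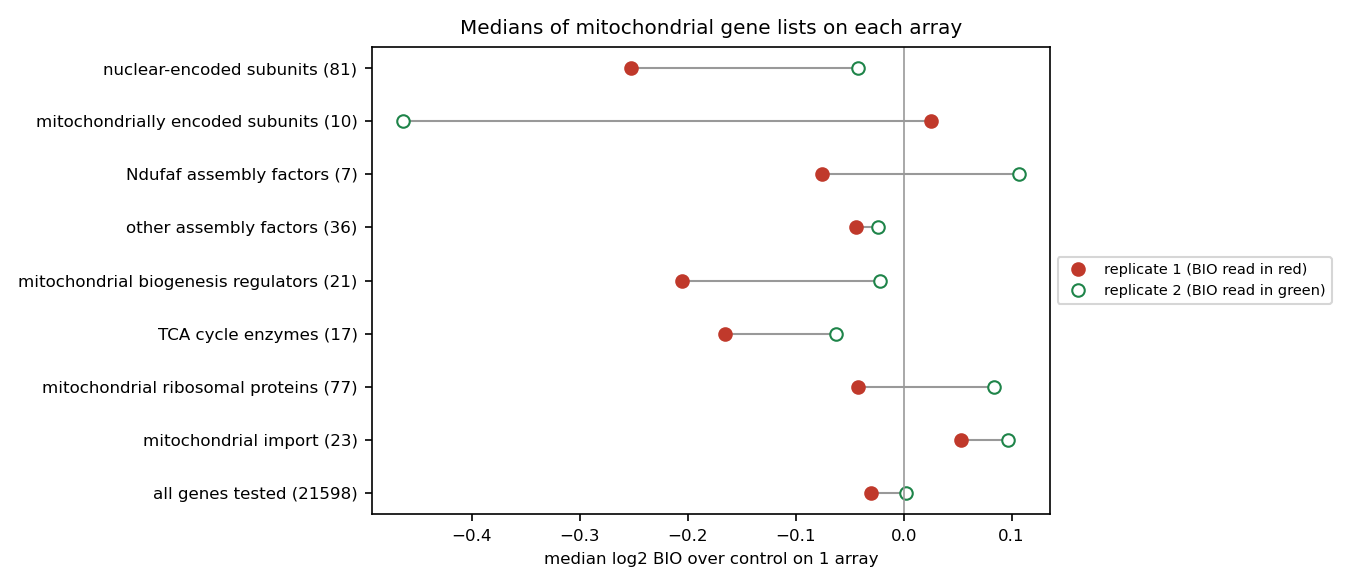
Median log2 ratio of BIO over control on each array for lists of mitochondrial genes (number tested in brackets), after loess. The nuclear-encoded subunits have their lower median in replicate 1 (filled) and the mitochondrially encoded ones in replicate 2 (open).

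Among 10 targets of the hypoxia-inducible factor, 4 fell, beside 14.8% of all genes tested. They were Egln3 (-2.11 and -1.38), Adm (-1.34 and -0.44), Pdk1 (-0.58 and -0.46) and Ankrd37 (-0.73 and -0.24). The lactate dehydrogenase gene Ldha was at -0.20 and 0.06. Pdk1 encodes a kinase that restrains the entry of pyruvate into the citric acid cycle. All 4 were also called with median centering. With the processed signals Egln3 was still called (adjusted p = 0.0439), but Pdk1 (0.0668), Ankrd37 (0.125) and Adm (0.129) were not.

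The explants hold several cell types, and in RNA from whole ureters fewer cells of a type and less RNA per cell cannot be told apart. All 12 epithelial and all 12 ureteric mesenchyme markers on the arrays were well above background in control and with BIO on both arrays. Of each list 6 fell while 0 rose, beside 14.8% fallen and 9.14% risen over all genes tested. All 8 endothelial markers fell, with a median of -2.07, and their summed processed signal was 28598 and 34430 in control against 5317 and 9919 with BIO. Of the pericyte markers 5 of 10 fell, of the macrophage markers 4 of 7 and of the erythroid markers 4 of 8. Of the 8 striated muscle markers 4 were well above background in control on both arrays. No marker was at 0 in the lists that fell, and the part of these cell types in the ratios of the oxidative phosphorylation genes was not tested.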

How the data were processed

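Per the file headers, the authors scanned two-color Agilent arrays and quantified them with Feature Extraction 10.7.3.1. The deposited tables hold mean spot and local background intensities, not normalized, and processed signal intensities that the software had background-subtracted and dye-normalized. The authors also deposited a table with 1 score per probe and array, whose making is not given in the sources used here. It followed a signed fold change and was rounded.

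Intensities were corrected by normexp (offset 50) and normalized by loess within each array with limma 3.58.1 in R 4.3.3. Control and outlier spots were left out, spots of a probe were averaged, and ratios were turned to BIO over control on the array with exchanged dyes. Of 39429 probes, 28824 were well above background in control or with BIO on both arrays and were tested against 0 (lmFit, eBayes, two-sided, Benjamini-Hochberg over all 28824). With 2 arrays, each taken as 1 replicate pool per condition, the number of arrays limits the precision. The median SE was 0.111 on the log2 scale. The SEs, intervals and p-values are limma's moderated ones. They rest mainly on the spread between these arrays over all tested probes, which supplied 7.14 of the 8.14 degrees of freedom. On simulated arrays with few changed probes, for which the adjustment is stricter than in the real data, changes of 0.5, 1 and 2 (log2) were called for 5, 48 and 50 of 50 probes each.

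The members, lists and tests were chosen with earlier results of these data known. Named genes were the called members of each complex, the 2 brightest, the isoforms of a subunit, the largest gap between arrays of opposite sign, and up to 4 called genes per list. Alternatives were other signals, offsets, centering and filters, averaging a gene's probes, the score table and single arrays. Probe coordinates are mm9, and gene models of that build were not used. Promoters came from RefSeq, GRCm38.p6. Python 3.11.15 and matplotlib 3.10.9 made the summaries and figures.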

Additional observations from a re-analysis of the deposited data

How the results depend on the processing

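The ratio within each array already pairs BIO with control RNA, so no fit with a replicate block was added. The 5 falls became 0 with the processed signals, 0 with median centering, 0 by the rule of at least 2-fold at an intensity of at least 100 on both arrays, which 3.08% of all genes passed, and 2 (Ndufa1 and Ndufa11) both with a normexp offset of 16 and without the filter on dim probes. They were 6 when a gene's probes were averaged and 5 when adjusted over 1 probe per gene. The score table gave 6 falls and 1 rise (Cox4i2, 0.14), and each of these 7 calls rested on scores equal on both arrays within 0.001. The cause of these losses was not tested. The median over the subunits, -0.17, was -0.000909 with median centering. The medians of complexes II, III, IV and V were 0.00616, 0.0269, 0.0145 and 0.0513 there, and that of complex V was -0.18 with probes averaged. On single arrays the median over the subunits ranged from -0.25 to -0.04, that of complex I from -0.30 to -0.02, of II from -0.20 to -0.06, of III from -0.21 to -0.0391, of IV from -0.20 to -0.05 and of V from -0.29 to -0.18. Over all genes of the name rule it was -0.16.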
